A study of Sus scrofa with 8 samples.

Results

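The genes described here are 10 fibroblast growth factor (FGF) genes and FGF receptor genes, measured by RNA-seq in pig heart. They are the secreted ligands FGF1, FGF2, FGF7, FGF10 and FGF16, the intracellular FGF homologous factors FGF12 and FGF13, and the receptors FGFR1, FGFR2 and FGFR3. The members were chosen by name from the 18975 genes of the deposited expression table. A row with the same gene name was found for 9 of them, and FGFR1 was found by its Ensembl gene ID, because the table lists it as FGFR1IIIC. The receptor rows do not separate splice forms.

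Hearts came from 2 breeds, Tibetan and Yorkshire pigs, each raised at highland (TH and YH) and at lowland (TL and YL), with 2 libraries per group and 8 in all. The pigs were male and 6 months old, and a library holds the RNA of 4 animals, so p-values measure the spread between such pools. The labels name the tissue as heart without a chamber.

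Secreted FGFs bind receptor tyrosine kinases of the FGFR family together with heparan sulfate, and the receptors signal through the adaptor FRS2 to the RAS and MAP kinase cascade. Sprouty proteins and MAP kinase phosphatases act as feedback inhibitors of that cascade. In the heart, FGF2 and FGF16 are known as products of cardiac cells, FGF10 acts in heart development, and FGFR1 is the main receptor of cardiomyocytes. FGF12 and FGF13 are not secreted and bind the cytoplasmic tail of voltage-gated sodium channels.

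Levels are given in FPKM, fragments per kilobase of transcript, which allows levels of different genes to be compared per length. The deposited values carry a library factor of the authors and are not a plain scaling per 1000000 mapped fragments. Reads on genes, counted in units of 1000000, were 15.7 to 26.7 per library with a median of 19.6. TH1 had 26.7 and YL2 had 21.5 of these units, while 1 read was scaled to 1.15 in TH1 and to 0.711 in YL2. Of the 10 genes, 7 passed the filter of at least 1 FPKM in at least 2 libraries and were tested with limma, a linear model with moderated variances, among 11913 genes. FGF10, FGFR2 and FGFR3 did not pass the filter, and their values are given without a test. FGF16 passed through TH1 and TL2 alone, and FGF12 through TH1, TL1 and TL2. The library YL2 stood apart from the other 7. All 16 table rows of the 15 kidney markers found were more than 2 times as high in YL2 as in any other library, with a summed level of 5352 FPKM against 2.42 to 19.3 FPKM. The summed level of 8 ventricular cardiomyocyte markers was 12597 FPKM in YL2 and 19048 to 34860 FPKM in the others. MYL2 and MYH7, which define ventricular muscle, were not matched in the table. Many results are therefore also given without YL2. TH1 stood apart in another way, since 767 of the tested genes (6.44%) were under 0.5 times their lowest level in the other 7 libraries, against 0.243% to 1.61% for the others.

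Ranked by the mean FPKM of the 8 libraries, FGF1 came first with 38.2 ± 17.9 FPKM (SD, n = 8), followed by FGFR1 with 24 ± 10.1 FPKM and FGF13 with 5.79 ± 2.39 FPKM. FGF1 exceeded FGFR1 in 6 of 8 libraries and FGFR1 exceeded FGF13 in 8 of 8. FGF7 had a mean of 4.07 FPKM, FGF2 of 2 FPKM, FGF12 of 0.998 FPKM, FGF16 of 0.664 FPKM and FGFR2 of 0.513 FPKM (0.276 FPKM without YL2). These neighbours crossed each other in some libraries, so their order is not fixed beyond the spread. FGFR3 had a mean of 1.6 FPKM that came almost wholly from YL2, and its median was 0.195 FPKM. FGF10 was last with a mean of 0.0224 FPKM, and of 0.0102 FPKM without YL2.

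**Figure D1:**
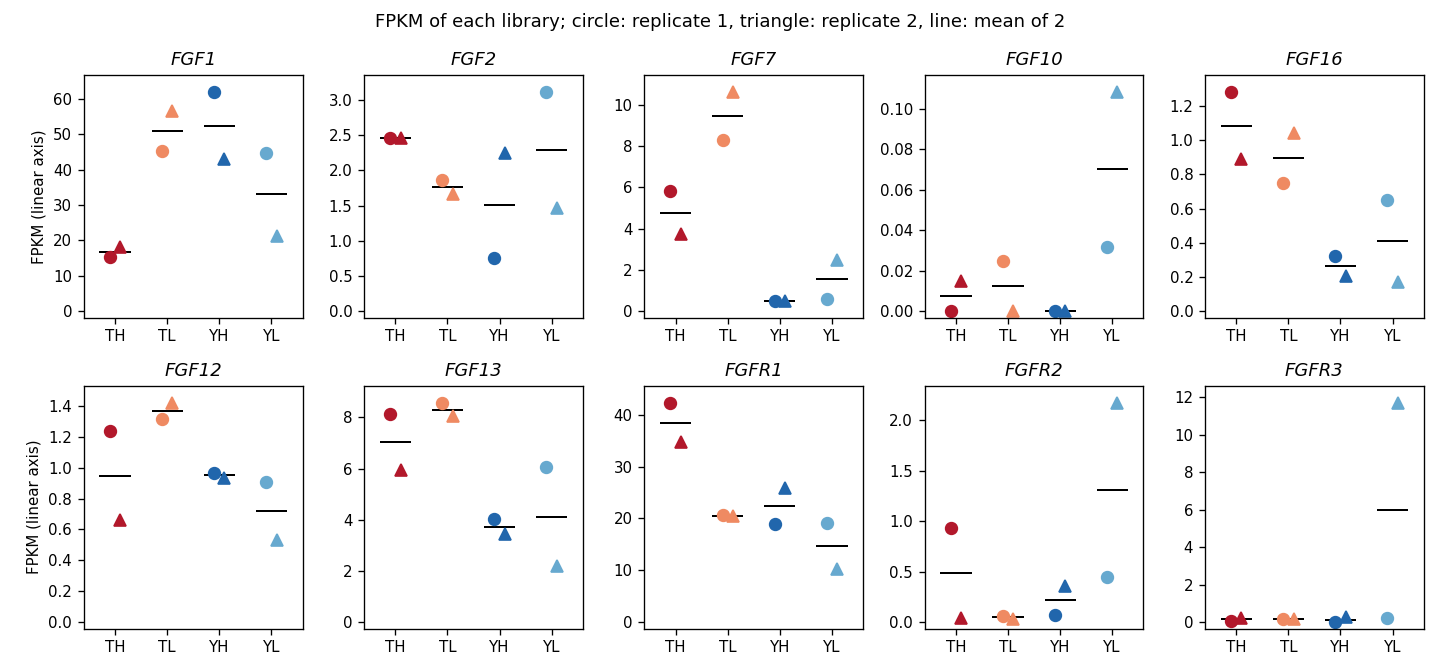
FPKM of the 10 genes in each library, on a linear axis of its own for each gene. Circles are replicate 1, triangles are replicate 2 and lines are means of 2 libraries. FGF1 is low and FGFR1 is high in both TH libraries, FGF7 and FGF16 are higher in all 4 Tibetan libraries than in any Yorkshire library, and FGFR3 is at 11.7 FPKM in YL2 alone.

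FGF1, the acidic FGF, which can bind every FGF receptor, was the most abundant ligand and was lowest in the Tibetan highland hearts. Its locus is chr2:150317383-150418060 in Sscrofa10.2, the build of the deposited table. It measured 15.3 and 18 FPKM in TH, 45.2 and 56.5 FPKM in TL, 61.8 and 42.9 FPKM in YH, and 44.7 and 21.2 FPKM in YL. Both TH libraries lay below each of the other 6, and YL2 at 21.2 FPKM came next. Between 1260 and 5850 reads stood behind these values. In TH vs. YH the difference was −1.58 (SE 0.38) on the log2(FPKM + 1) scale, with an adjusted p of 0.151 (limma, Benjamini-Hochberg over all genes tested). In TH vs. TL it was −1.55 (SE 0.38, adjusted p = 0.245). Over 17 alternative settings the TH vs. YH difference lay between −2.27 and −1.32 and its adjusted p between 0.0495 and 0.642, so the direction held in these settings and the adjusted p stayed above 0.01. The lowest adjusted p came when YL replicate 1 was left out. Without TH1 the differences were −1.47 in TH vs. YH and −1.44 in TH vs. TL.

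Outside the Tibetan highland group the FGF1 differences were smaller and of the opposite sign. The difference was 0.69 on the log2(FPKM + 1) scale in TL vs. YL (SE 0.38, adjusted p = 0.662) and 0.72 in YH vs. YL (SE 0.38, adjusted p = 0.784). Without YL2 these differences were 0.17 and 0.20, and without YL1 they were 1.22 and 1.24. The interaction, the TH minus TL difference less the YH minus YL difference, was −2.27 (SE 0.53, adjusted p = 0.296) and was −1.75 without YL2 (adjusted p = 0.231). Without YL replicate 1 it was −2.79 (adjusted p = 0.0161).

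The level of FGF1 was set against genes of cardiomyocytes in the same library, where scaling between libraries cancels. Its ratio to RYR2, the calcium release channel of cardiomyocytes, was 0.384 and 0.53 in the TH libraries and 0.901 and 1.16 in the TL libraries, and it was 1.2 and 0.76 for YH and 0.796 and 1.01 for YL. The TH libraries were again the lowest 2, and YL2 was no longer low. Relative to TNNT2, cardiac troponin T, FGF1 was at 0.00214 and 0.00469 in TH and at 0.00585 to 0.0115 in the other libraries. Relative to MYL3, another ventricular marker, it was at 0.00205 and 0.00336 in TH and at 0.00561 to 0.00943 in the others. The ventricular markers, of which 8 of 10 were found, summed to 34860 and 19048 FPKM in TH and to 12597 to 31060 FPKM in the other 6 libraries. Atrial markers, of which 8 of 11 were found, summed to 6643 and 5411 FPKM in TH and to 417 to 2704 FPKM in the other 6 libraries. That sum was mostly MYL7 and NPPA, and MYH6 of the same list was at 20.6 and 18.4 FPKM in TH and at 75.1 to 246 FPKM in TL, YH and YL1, with 2.6 FPKM in YL2. Fibroblast markers, with all 9 genes found, summed to 297 and 940 FPKM in TH and to 316 to 1040 FPKM elsewhere. The part of such differences between libraries in the FGF1 result was not tested. In bulk RNA, fewer cells of a type and less RNA per cell cannot be told apart.

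FGFR1, the receptor tyrosine kinase, was highest in the Tibetan highland hearts. Its locus is chr15:55215591-55269381. It measured 42.3 and 34.7 FPKM in TH, 20.6 and 20.5 FPKM in TL, 18.9 and 25.8 FPKM in YH, and 19.1 and 10.2 FPKM in YL. Both TH libraries lay above each of the other 6, and YL2 was the lowest. The difference was 0.77 in TH vs. YH (SE 0.32, adjusted p = 0.307) and 0.87 in TH vs. TL (SE 0.32, adjusted p = 0.38) on the log2(FPKM + 1) scale, and neither passed the test. Scaling each library to the same FPKM sum, under which the median of all genes is −0.50 in TH vs. YH, turned that difference to −0.16, while TH vs. TL stayed positive in all 17 settings with 0.24 to 1.01. Without TH1 the differences were 0.63 and 0.73. In TL vs. YL the difference of 0.52 (adjusted p = 0.693) was 0.10 without YL2 and 0.95 without YL1.

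The ratio of FGF1 to FGFR1 within a library does not depend on scaling between libraries. It was 0.361 and 0.517 in TH, against 2.2 and 2.75 for TL, 3.28 and 1.66 for YH, and 2.34 and 2.09 for YL. The TH libraries were the only ones in which the receptor exceeded this ligand. The ratio in YL2 lay within the range of TL, YH and YL1, although both genes were low in that library. The pair was taken as the 2 most abundant members and its ratio was looked at after their levels had been seen, so it is given without a test. Relative to TNNT2, cardiac troponin T, FGFR1 was at 0.00593 and 0.00906 in TH and at 0.00251 to 0.00547 in the other libraries.

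**Figure D2:**
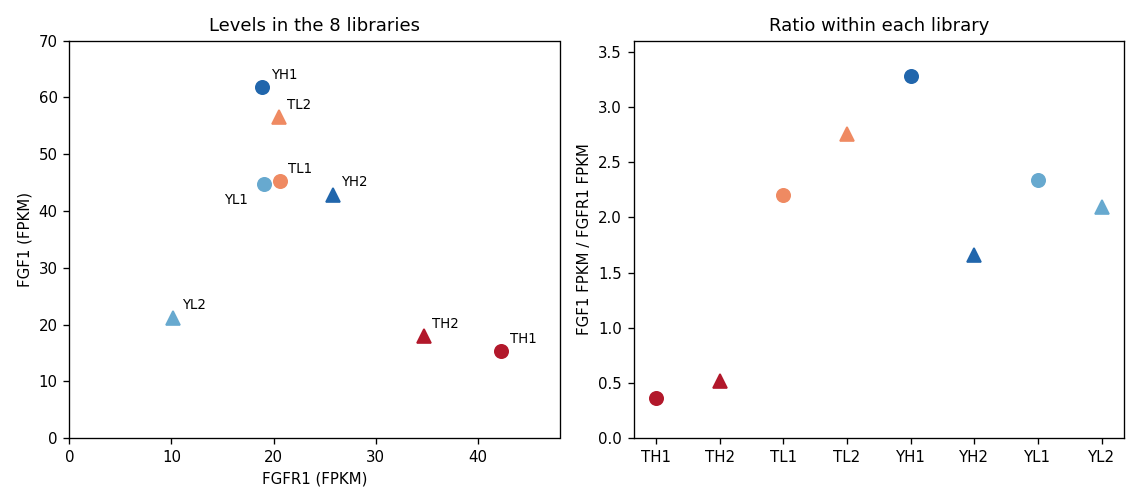
Left, FPKM of FGF1 against FPKM of FGFR1 in the 8 libraries, and right, their ratio within each library (circles replicate 1, triangles replicate 2). TH1 and TH2 lie apart at high FGFR1 and low FGF1, with ratios of 0.361 and 0.517 against 1.66 to 3.28 in the other 6 libraries.

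FGF7, the keratinocyte growth factor, a fibroblast product that acts on epithelial cells through a splice form of FGFR2, was higher in the Tibetan hearts at both altitudes. It measured 5.82 and 3.73 FPKM in TH, 8.31 and 10.6 FPKM in TL, 0.486 and 0.501 FPKM in YH, and 0.581 and 2.5 FPKM in YL. Each Tibetan library lay above each Yorkshire library, and among the Yorkshire libraries YL2 was the highest. These values rest on few reads, since the gene model at chr1:135992857-135993148 spans 292 bases and 1 read was worth about 0.495 FPKM. TH1 and TH2 had 11 and 6 reads, TL1 and TL2 had 17 and 25, YH1 and YH2 had 1 each, and YL1 and YL2 had 1 and 8. The ratio of reads between breeds, in the authors' scaling, was 5.96 with a 95% Poisson interval of 3.1 to 12.6 that covers counting error only. Without YL2 it was 14.7 (4.79 to 73.3), from 59 reads against 3.

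On the log2(FPKM + 1) scale FGF7 was 1.93 higher in TH vs. YH (SE 0.40, adjusted p = 0.115) and 2.15 higher in TL vs. YL (SE 0.40, adjusted p = 0.192), and neither passed the test. After sum scaling they were 0.71 and 1.21, and with a pseudocount of 0.1 they were 3.00 and 2.84. The difference between breeds averaged over both altitudes was added after the data had been seen. It was 2.04 (SE 0.28) with an adjusted p of 0.0462 in the limma fit, over the threshold of 0.01 used here. Without YL2 it was 2.32 (adjusted p = 0.0143), and without YL replicate 1 it was 1.75 (adjusted p = 0.00635). Over 15 settings it lay between 0.96 and 2.92 with an adjusted p of 0.00635 to 0.293. Within the Tibetan breed the TH vs. TL difference of FGF7 was −0.87 (SE 0.40, adjusted p = 0.47), with 17 reads against 42. Relative to DCN, decorin of fibroblasts, FGF7 was at 0.0252 to 0.0804 in the Tibetan libraries, at 0.0028 to 0.00382 in YH1, YH2 and YL1, and at 0.0243 in YL2. The other fibroblast markers did not all follow DCN. Averaged over altitudes, 9 of 10 tested rows of that list were higher in Tibetan pigs with a median of 0.67 (0.82 without YL2), with DCN at 0.12, LUM at 1.16 and COL1A2 at 1.42, and none was called. The part of fibroblast content in the FGF7 result was not tested.

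FGF16, a ligand known from heart development, was low throughout and was also higher in the Tibetan libraries. Its locus is chrX:70359019-70368401. It measured 1.28 and 0.889 FPKM in TH, 0.749 and 1.04 FPKM in TL, 0.322 and 0.207 FPKM in YH, and 0.652 and 0.17 FPKM in YL. The breeds did not overlap, but TL1 at 0.749 FPKM and YL1 at 0.652 FPKM were close. Reads numbered 128 in the Tibetan and 44 in the Yorkshire libraries, a ratio of 3.23 (95% Poisson interval 2.28 to 4.66), and 2.66 (1.82 to 3.96) without YL2. On the log2(FPKM + 1) scale, which understates changes at this level, the difference was 0.72 in TH vs. YH (SE 0.25, adjusted p = 0.248) and 0.44 in TL vs. YL (SE 0.25, adjusted p = 0.679), or 0.19 without YL2 and 0.69 without YL1. Averaged over altitudes it was 0.58 (SE 0.18, adjusted p = 0.238), and 0.46 without YL2. None passed the limma test. The size depended on the scale, since the average was 0.17 after sum scaling, 1.41 with a pseudocount of 0.1 and 1.59 on scaled reads.

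FGF2, the basic FGF, rested on too few reads for its groups to be told apart. The model at chr8:108489470-108503367 collected 2 to 7 reads per library, with 1 read worth about 0.393 FPKM. It measured 2.46 and 2.46 FPKM in TH, 1.86 and 1.66 FPKM in TL, 0.754 and 2.25 FPKM in YH, and 3.11 and 1.46 FPKM in YL. The Yorkshire libraries spanned the Tibetan ones. The ratio of Tibetan to Yorkshire reads, 21 against 20, was 1.17 in the authors' scaling (95% Poisson interval 0.602 to 2.27). The differences on the log2(FPKM + 1) scale were 0.54 in TH vs. YH (adjusted p = 0.493, −0.06 after sum scaling), −0.21 in TL vs. YL, 0.33 in TH vs. TL and −0.42 in YH vs. YL. Without YL2 they were −0.58 in TL vs. YL and −0.79 in YH vs. YL.

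FGF10, a mesenchymal ligand of FGFR2, was at the limit of detection. The locus at chr16:30234654-30317162 had 0 reads in TH1, TL2, YH1 and YH2, for which the 95% Poisson interval reaches 3.69 reads, 1 read in TH2, and 2 reads each in TL1 and YL1. YL2 had 12 reads and 0.108 FPKM, against at most 0.0319 FPKM elsewhere. The kidney markers stand out in the same library.

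FGF13, an FGF homologous factor, was the most abundant intracellular member and was higher in Tibetan than in Yorkshire highland hearts. Its locus is chrX:129613235-129689399. It measured 8.12 and 5.93 FPKM in TH, 8.56 and 8.04 FPKM in TL, 4.02 and 3.44 FPKM in YH, and 6.06 and 2.17 FPKM in YL. YL1 lay above TH2, and otherwise the Tibetan libraries were above the Yorkshire ones. The difference was 0.75 in TH vs. YH (SE 0.38, adjusted p = 0.381) on the log2(FPKM + 1) scale and −0.03 after sum scaling. In TL vs. YL it was 0.97 (SE 0.38, adjusted p = 0.513) and 0.40 without YL2 or 1.55 without YL1. Averaged over altitudes it was 0.86 (SE 0.27, adjusted p = 0.243), 0.57 without YL2 and 0.27 after sum scaling. No altitude difference was seen that exceeded its error, with −0.23 in TH vs. TL (SE 0.38) and 0.00 in YH vs. YL (SE 0.38). In YH vs. YL leaving out either YL library moved this value to between −0.58 and 0.58.

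FGF12, the other homologous factor of the set, was near 1 FPKM. Its locus is chr13:138749974-138983559, and it measured 1.24 and 0.66 FPKM in TH, 1.32 and 1.42 FPKM in TL, 0.964 and 0.937 FPKM in YH, and 0.907 and 0.532 FPKM in YL. The TH libraries spanned both YH libraries, and the TH vs. YH difference was −0.01 (SE 0.24, adjusted p = 0.982) on the log2(FPKM + 1) scale. In TL vs. YL it was 0.47 (SE 0.24, adjusted p = 0.63) and 0.31 without YL2. FGF13 exceeded FGF12 in every library, with a within-library ratio of 3.67 to 8.99.

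FGFR2 and FGFR3, receptors best known from epithelia and bone, were under 1 FPKM in 7 libraries and stood out in YL2. FGFR3 at chr8:337381-341443 measured 0.0572 and 0.21 FPKM in TH, 0.181 and 0.152 FPKM in TL, 0 and 0.241 FPKM in YH, 0.227 FPKM in YL1 and 11.7 FPKM in YL2. Its reads were 358 in YL2 and 24 in the other 7 libraries together. The scaled ratio of YL2 to the rest was 71.7 (95% Poisson interval 47.4 to 113). FGFR2 at chr14:142500501-142570296 measured 0.929 and 0.0415 FPKM in TH, 0.062 and 0.0308 FPKM in TL, 0.0696 and 0.358 FPKM in YH, 0.444 FPKM in YL1 and 2.17 FPKM in YL2. Its reads were 84 in YL2 and 1 to 9 in each other library. The FPKM of FGFR2 did not follow its reads closely, since 1 read gave 0.444 FPKM in YL1 and 1 read gave 0.0308 FPKM in TL2. Without YL2, Tibetan and Yorkshire reads were 13 and 11 for FGFR2 and 12 and 12 for FGFR3, with no difference detectable at this depth.

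Of the rows listed for FGF signalling, 10 of 88 (11.4%) were over 2 times the highest other library in YL2. The 4 named next were chosen for that. FGFR4 was at 12.6 FPKM there and at 0.3 to 1.12 FPKM elsewhere, and KL, the co-receptor Klotho of endocrine FGFs, was at 34 FPKM against 0.583 to 1.82 FPKM. SDC1, a heparan sulfate proteoglycan of epithelia, reached 26.7 FPKM against at most 0.719 FPKM, and the transcription factor ETV5 reached 13.6 FPKM against at most 1.05 FPKM. UMOD, which encodes uromodulin of the kidney tubule, was at 947 FPKM in YL2 and at most 0.811 FPKM elsewhere. By the same measure, 3 of the 10 members (FGFR3, FGF10 and FGFR2) were over 2 times the highest other library, as were 13.3% of all listed genes. The other 7 members were below the highest other library. The part of kidney transcripts in these values was not tested.

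**Figure D3:**
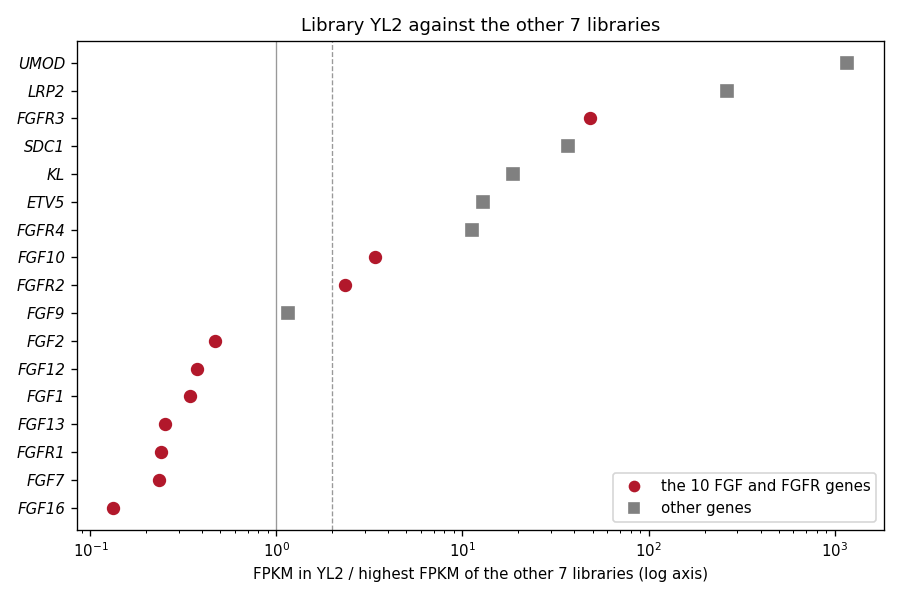
FPKM in YL2 divided by the highest FPKM of the other 7 libraries, on a log axis, for the 10 members (circles) and 7 other genes (squares). The solid line marks equality and the dashed line a ratio of 2. FGFR3 lies at 48.6, FGF10 at 3.38 and FGFR2 at 2.34, and the other 7 members lie between 0.133 and 0.47.

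Read over the tested genes as a whole, no member was called in any comparison at an adjusted p under 0.01 with a log2 difference over 1 in size (limma). In TH vs. YH 0 of 7 were called, where 0.0336% of all tested genes were, and 4 of 7 (FGF1, FGF7, FGF16 and FGFR1) had an unadjusted p under 0.05 against 16.2% of all. Libraries of TH and YH did not overlap for 6 of 7 against 52.5% of all. In TL vs. YL 0 of 7 were called against 0.00839%, 2 of 7 (FGF7 and FGF13) had an unadjusted p under 0.05 against 8.94%, and 6 of 7 did not overlap against 41.5%. The median difference of the 7 was 0.72 in TH vs. YH and 0.52 in TL vs. YL, where the medians of all tested genes were −0.03 and 0.02. Without YL2 the TL vs. YL median of the 7 was 0.19. The TH vs. YH median is the value of FGF16. FGF12 and FGF16 passed the filter through Tibetan libraries alone, and FGF7 through these and YL2. For these genes the filter itself favoured higher Tibetan values, so nothing is read from these shares and medians. They are a description of the 7 and not of all 10.

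For altitude within a breed, 0 of 7 members were called in TH vs. TL against 0.0504% of all tested genes. FGF1 and FGFR1 had an unadjusted p under 0.05 there, 2 of 7 against 11.3%, and 5 of 7 did not overlap against 48.5%. In YH vs. YL 0 of 7 were called against 0%, 0 of 7 had an unadjusted p under 0.05 against 5.97%, and 2 of 7 (FGF7 and FGF12) did not overlap against 36.3%. For the interaction 0 of 7 were called against 0.0336% and FGF1 alone had an unadjusted p under 0.05, against 10.9% of all. For the breeds averaged over altitudes 0 of 7 were called against 0.0504%, and 4 of 7 (FGF7, FGF13, FGF16 and FGFR1) had an unadjusted p under 0.05 against 13.5%. FGF7 and FGF16 were the 2 members whose Tibetan and Yorkshire libraries did not overlap, against 8.03% of all tested genes. For FGF16, and in part for FGF7, the filter itself favoured that outcome, so nothing is read from these counts. TH vs. YH and TH vs. TL share the TH libraries, so the values of a member in both are not independent.

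**Figure D4:**
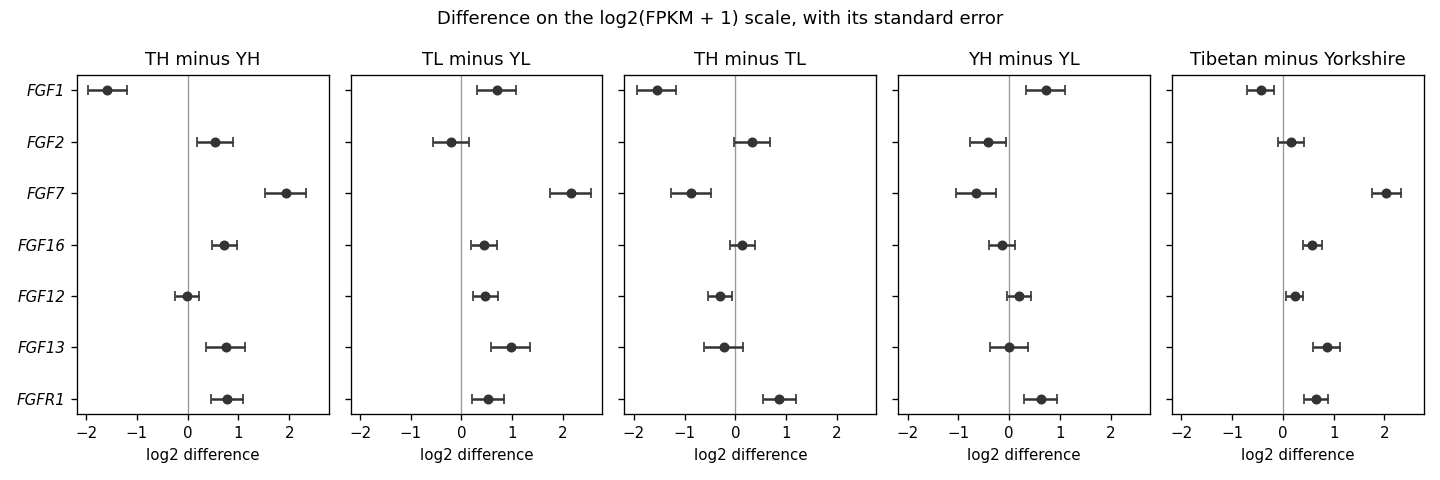
Differences of the 7 tested members between groups on the log2(FPKM + 1) scale in the limma fit, with their standard errors. FGF1 lies at −1.58 and −1.55 in the 2 comparisons that hold TH as the first group, and FGF7 lies at 1.93 and 2.15 in the 2 comparisons of breeds.

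The members were also set beside other genes of FGF signalling. Of 13 other ligands 5 were found in the table and only FGF9 passed the filter, with 1.47 to 5.95 FPKM. Its differences were 0.31 in TH vs. YH, −0.80 in TL vs. YL and 0.65 in TH vs. TL (each SE 0.51), none passed the test, and TL vs. YL was −0.31 without YL2. Of the other homologous factors, FGF11 was at 0.415 to 2.3 FPKM, with 0.79 in TL vs. YL (SE 0.29, adjusted p = 0.478) and −0.73 in TH vs. TL (SE 0.29, adjusted p = 0.409). Among heparan sulfate core proteins 10 of 11 were found and 7 tested, and none was called. The glypican GPC1 was the highest of them, with 114 and 78.1 FPKM in TH against 19.9 to 68.9 FPKM elsewhere, and its breed difference was 0.89 (SE 0.35, adjusted p = 0.34) and 0.50 without YL2. Of the heparan sulfate enzymes 11 rows were tested and none was called. HS2ST1, a sulfotransferase, was at 3.22 and 3.93 FPKM in TH and at 1.9 and 1.88 FPKM in TL, a difference of 0.66 (SE 0.20, adjusted p = 0.31). The Yorkshire libraries lay at 2.87 to 3.46 FPKM, so TL was the group apart, and TL vs. YL was −0.52 (SE 0.20, adjusted p = 0.498).

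The adaptors and kinases below the receptor gave 25 tested rows, and none was called in any comparison. In TH vs. YH 9 were higher and 16 lower with a median of −0.08, and averaged over altitudes 12 Tibetan values were higher and 13 lower with a median of −0.07. The adaptor GRB2 lay between 25.9 and 44 FPKM. MAP2K1 has 2 rows in the table, which may share reads.

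Of 20 feedback inhibitors and transcriptional targets 17 were tested. Averaged over altitudes, 12 were higher and 5 lower in Tibetan pigs with a median of 0.30, and 6 had an unadjusted p under 0.05, all higher, where 13.5% of all tested genes did. The 6 were FOS, EGR1, MYC, ETV1, DUSP5 and ETV4. FOS, an immediate early transcription factor, was the only one called, against 0.0504% of all tested genes, and only in this average, which was added after the data had been seen. In TH vs. YH its adjusted p was 0.0201 and in TL vs. YL 0.12. It measured 53.8, 85.5, 50.9 and 42 FPKM in the Tibetan libraries TH1, TH2, TL1 and TL2 and 3.4, 5.91, 4.3 and 5.98 FPKM in YH1, YH2, YL1 and YL2. The difference was 3.30 on the log2(FPKM + 1) scale (SE 0.24, adjusted p = 0.00552), and 3.40 without YL2 (adjusted p = 0.00995). Over 17 alternatives its adjusted p was 0.00103 to 0.0627, and 8 of the 17 kept the call. The 17 include the main fit read at an adjusted p under 0.05, where the call followed from the main result. FOS and EGR1 respond to many stimuli besides FGFs.

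None of the Sprouty genes passed the test. SPRY1 differed by 0.18 (SE 0.17), SPRY2 by 0.04 (SE 0.28) and SPRY4 by 0.30 (SE 0.38) between breeds. The phosphatase DUSP6 differed by −0.07 (SE 0.31) and by 0.18 without YL2, with 2.08 to 7.44 FPKM, and its relative DUSP5 by 0.99 (SE 0.26, adjusted p = 0.186). ETV4, a transcription factor induced by FGFs, differed by 0.84 (SE 0.20, adjusted p = 0.151), and ETV5 by −0.71 (SE 0.59) and by 0.04 without YL2. SPRY2 was at 0.27 without that library. DUSP5, ETV1, ETV4 and ETV5 lie outside the rule for named genes and were chosen after their values were seen.

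**Figure D5:**
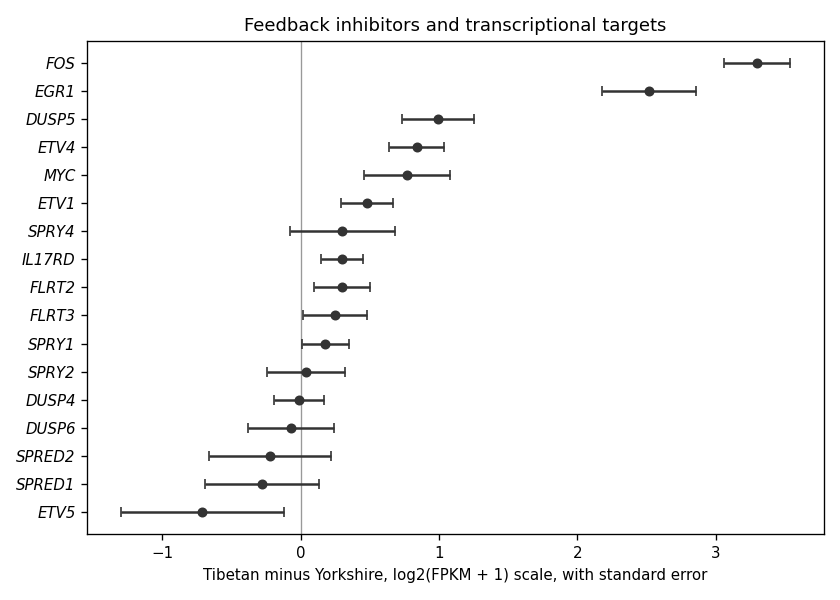
Tibetan minus Yorkshire difference, averaged over both altitudes, of the 17 tested feedback inhibitors and transcriptional targets, with standard errors, on the log2(FPKM + 1) scale. FOS at 3.30 and EGR1 at 2.52 lie apart from the others, and ETV5 at −0.71 is the lowest.

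Among genes of at least 5 FPKM, the one whose level followed FGF1 most closely over the 8 libraries was MFN2, mitofusin 2, with a Pearson correlation of 0.994 on the log2(FPKM + 1) scale, and MCFD2 followed with 0.981. MFN2 measured 36.2 and 42.1 FPKM in TH, 42 FPKM in YL2 and 62.3 to 78.9 FPKM in the other 5 libraries. Without YL2 the closest were again MFN2 with 0.995 and then NDUFS1, a subunit of respiratory complex I, with 0.986. For FGFR1 the closest were FAM214B with 0.984 and PLEKHO1 with 0.982, and without YL2 PPIA with 0.997 and TIMP1, an inhibitor of metalloproteinases, with 0.994. TIMP1 measured 150 and 77.8 FPKM in TH against 8.42 to 41 FPKM elsewhere. For FGF13 the closest was PGP with 0.997, for FGF12 AFAP1L1 with 0.957, and for FGF16 FEM1B with 0.975. Without YL2 the closest was JAG2 with 0.970 for FGF12 and PDXK with 0.968 for FGF16. For FGF7 the closest was SRSF3 with 0.959, or MMP15 with 0.980 without YL2, and for FGF2 DNAJA1 with 0.917. These were the highest of 5888 or 5889 candidates each over 8 libraries in 4 groups, and they describe likeness of pattern only.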

How the data were processed

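RNA of 8 heart pools was sequenced by the authors from mRNA libraries, aligned to Sscrofa10.2 with TopHat2 (2.0.9) and tested by them with DESeq (1.10.1), per the labels. The table they deposited gives FPKM of 18975 genes per library. It also gives, per the file headers, a read count multiplied by the authors with a library factor, which is treated as a signal. Division by the value of a single read in each library made 99.8% to 99.9% of values under 300 reads whole within 0.1 read, and the reads of members come from it, with all 80 member values whole. FPKM and signal carry the same library factor, since their ratio per gene varied by a median of 6.2% (CV) over 6935 genes. The 8 columns of group means and ratios and the 4 tables of single groups were not used. YL libraries were assigned by title, breed and column name, because their descriptions point to the TL table.

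With limma 3.58.1 (R 4.3.3) a model with group terms and a variance trend was run on log2(FPKM + 1) of the 8 libraries. It covered the 11913 genes that reached 1 FPKM in 2 or more libraries. P-values were two-sided and adjusted by Benjamini-Hochberg over these genes, and calls needed an adjusted p below 0.01 together with a log2 difference above 1 in size. Poisson intervals were exact and cover counting error only. Alternatives were another pseudocount (0.1), other filters and scalings, a replicate block, and each library left out. The members, gene lists and naming rule were chosen with earlier results of these data known. Genes named were the members, at most 8 genes per list by mean FPKM, and the 2 genes most correlated with each member.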

Additional observations from a re-analysis of the deposited data

Results flagged for a closer look

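FGF1 was looked at again because its breed difference had opposite signs at the 2 altitudes, lower in TH than in YH and higher in TL than in YL, with no overlap of the libraries at either altitude. TL1 at 45.2 FPKM and YL1 at 44.7 FPKM were close. Libraries did not overlap for 52.5% of all tested genes in TH vs. YH and for 41.5% in TL vs. YL. The interaction was −2.27 on the log2(FPKM + 1) scale with an adjusted p of 0.296 (limma), so the test of the difference itself did not pass. FGF12 was looked at again because its altitude difference had opposite signs in the 2 breeds, lower in TH than in TL and higher in YH than in YL, again with no overlap. YH2 at 0.937 FPKM and YL1 at 0.907 FPKM were close. Libraries did not overlap for 48.5% of all tested genes in TH vs. TL and for 36.3% in YH vs. YL. The share of all genes with opposite signs and no overlap was not counted, so nothing is read from these 2 flags. The interaction of FGF12 was −0.49 (adjusted p = 0.601, limma) at levels near 1 FPKM. Without YL2 the YH vs. YL difference of FGF12 was 0.03 and its interaction −0.33, and the FGF1 interaction was −1.75.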

How the results depend on the processing

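No member was called in the 4 pairwise comparisons or the interaction under any alternative run. In the difference averaged over altitudes 1 member, FGF7, passed in the limma fit when the threshold was an adjusted p of 0.05 (2.04). The share of all tested genes that passed at this threshold is not given, so nothing is read from this count. The FGF7 difference was 1.75 when YL replicate 1 was left out. Of 664 values of a member under an alternative 21 changed sign, 3 of them with a main value over 0.5 in size (FGF2, FGF13 and FGFR1 in TH vs. YH under sum scaling). Under scaling to equal FPKM sums FGF2 gave −0.06 in TH vs. YH and −0.16 between breeds, FGF12 −0.03 between breeds, FGF13 −0.03 and FGFR1 −0.16 in TH vs. YH, FGF16 −0.07 in TH vs. TL, and the interaction was −0.02 for FGF16 and −0.35 for FGFR1. Under that scaling the median of all genes was −0.50 in TH vs. YH, −0.23 in TL vs. YL, −0.27 in TH vs. TL and −0.39 between breeds, and under median-ratio scaling it was −0.13 in TH vs. YH, against −0.03 to 0.02 as deposited. Leaving out single libraries gave FGF2 differences of −0.58 to 0.16 in TL vs. YL (lowest without YL2, highest without YL1), −0.86 to 0.03 in YH vs. YL (YH2, YH1) and −0.06 to 0.39 between breeds (YH1, YH2), with −0.02 without YL2. It turned FGF12 to 0.20 in TH vs. YH (without TH2) and FGF16 to 0.11 in YH vs. YL (without YL1). The interaction then lay between −0.79 (YL2) and 0.35 (YL1) for FGF7, with 0.04 without TH2, between −0.80 (YL1) and 0.36 (YL2) for FGF13, and between −0.18 (YL1) and 0.67 (YL2) for FGFR1. A pseudocount of 0.1 gave an FGF7 interaction of 0.17. Scaled reads in place of FPKM, an alternative chosen after seeing the data, gave 0.09 for it and 0.24 for FGF12 in TH vs. YH. The cause of these turns was not tested.

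Over all genes the number called was 4 in TH vs. YH and up to 38 under sum scaling, 1 in TL vs. YL and up to 305 without YL1, 6 in TH vs. TL and up to 30 under sum scaling, 0 in YH vs. YL and up to 305 without YL1, 4 in the interaction and up to 152 without YL1, and 6 between breeds and up to 227 without YL1. Scaled reads gave 0 in each. Where a group kept 1 library, that library was assumed to vary like the others. With the replicate number as a replicate block 0 members were called in each comparison, FGF7 between breeds had an adjusted p of 0.0838, and the numbers did not pair the libraries, since deviations of same-numbered libraries correlated by −0.08 to 0.12 between groups. The planned count tests were not run, because a few scaled values of other genes fall below 1 read, so the columns as wholes were not taken as counts. FGF2, FGF7, FGF10, FGF16 and FGFR2 rest on few reads, and 2 pools per group limit every p-value.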
